A study of Mus musculus with 13 samples.

Results

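The genes described here are 9 that T cells use to control their activation: Foxp3, Ctla4, Icos, Il2ra, Pdcd1, Lag3, Tnfrsf4, Tnfrsf18 and Ikzf2. They were taken by symbol from the 31053 genes of the deposited matrix, and all 9 were found. T cells were the barcodes with at least 2 UMIs summed over Cd3e, Cd3d and Cd3g, the chains of the CD3 complex, and at most 10% of UMIs from mitochondrial genes, where a unique molecular identifier (UMI) marks 1 captured RNA molecule. The rule kept 2082 of 37344 barcodes and used none of the 9 genes.

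The study describes its samples as taken from the lungs of C57BL/6 mice. By their labels, 4 single samples are Asthma (an ovalbumin-induced model), PPE-emphysema (weekly instillation of porcine pancreatic elastase into the airways), PPE-recovery (an elastase model left to recover) and Control, and the study states 1 mouse per group for its single-cell libraries. The other 9 samples are 3 each of Acute injury (taken early after elastase was first given), Con and emphysema. Nothing in the labels ties a barcode to a sample: the barcodes carry 7 library numbers, so the matrix was treated as 1 sample, values are given by library number and no model is compared with its control.

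CTLA4, ICOS and PD-1 (the product of Pdcd1) are relatives of the co-stimulatory receptor CD28. CTLA4 and PD-1 restrain T cells, and ICOS supports them. LAG3 is another inhibitory receptor, which binds MHC class II. IL2RA is the subunit that gives the interleukin-2 receptor its high affinity, and TNFRSF4 (OX40) and TNFRSF18 (GITR) are co-stimulatory receptors of the tumour necrosis factor family. FOXP3 is the transcription factor that defines regulatory T cells, the cells that hold back immune responses, and IKZF2 (Helios) is a transcription factor that many of them also carry. All 8 of the other genes are known both in regulatory T cells and in other activated lymphocytes.

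In GRCm38 with the GENCODE M21 annotation, Ctla4 lies on chromosome 1 from 60887000 to 60915832 and Icos on the same strand from 60977927 to 61000320, 62094 bases further on. Tnfrsf4 (chromosome 4, 156013843 to 156016612) and Tnfrsf18 (156026164 to 156028895) are also neighbours, 9551 bases apart on the same strand. Pdcd1 (94038305 to 94052553) and Ikzf2 (69531214 to 69687245) are on chromosome 1 as well, Il2ra is on chromosome 2 (11642807 to 11693193), Lag3 on chromosome 6 (124904361 to 124911705) and Foxp3 on chromosome X (7573644 to 7595245). Foxp3 overlaps Ppp1r3f, Gm36995 and Ccdc22 on the other strand and Flicr on its own. What these overlaps do to its counts was not tested. Ctla4, Icos, Il2ra, Tnfrsf18 and Ikzf2 overlap annotated genes of their own or the opposite strand that are pseudogenes or gene models known by number only.

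The promoter windows below are those of 5 genes, including both neighbours on chromosome 4. They are Foxp3 and genes each found with it in at least 2 times the T cells expected from independent detection within libraries. Each runs from 250 bases before to 50 bases after the start of the gene in RefSeq (GRCm38.p6) and is written 5′ to 3′ on the coding strand. These starts differ from the GENCODE starts above. The windows of Ctla4 and Foxp3 lie inside their GENCODE genes, and that of Tnfrsf4 ends before its GENCODE start. Capitals mark matches, on either strand, to GGAAA (the core bound by NFAT and Rel factors), TGANTCA (AP-1), TTCNNNGAA (STAT factors) and TAAACA (the forkhead core). The windows are chr1:60908775-60909074 for Ctla4, chr2:11642542-11642841 for Il2ra, chr4:156013445-156013744 for Tnfrsf4, chr4:156026072-156026371 for Tnfrsf18 and chrX:7579426-7579725 for Foxp3, all on the plus strand.
Ctla4: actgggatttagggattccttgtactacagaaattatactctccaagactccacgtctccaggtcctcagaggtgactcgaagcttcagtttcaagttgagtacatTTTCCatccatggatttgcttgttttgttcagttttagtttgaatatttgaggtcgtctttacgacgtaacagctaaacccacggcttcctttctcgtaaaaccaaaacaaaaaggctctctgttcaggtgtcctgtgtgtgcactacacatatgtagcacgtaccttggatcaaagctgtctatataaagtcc
Il2ra: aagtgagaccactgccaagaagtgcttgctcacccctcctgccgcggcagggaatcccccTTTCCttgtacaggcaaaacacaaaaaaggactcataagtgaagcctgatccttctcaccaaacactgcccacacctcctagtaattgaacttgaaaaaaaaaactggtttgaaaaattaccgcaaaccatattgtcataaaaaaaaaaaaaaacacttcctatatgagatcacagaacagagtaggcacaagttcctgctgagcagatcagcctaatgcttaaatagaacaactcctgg
Tnfrsf4: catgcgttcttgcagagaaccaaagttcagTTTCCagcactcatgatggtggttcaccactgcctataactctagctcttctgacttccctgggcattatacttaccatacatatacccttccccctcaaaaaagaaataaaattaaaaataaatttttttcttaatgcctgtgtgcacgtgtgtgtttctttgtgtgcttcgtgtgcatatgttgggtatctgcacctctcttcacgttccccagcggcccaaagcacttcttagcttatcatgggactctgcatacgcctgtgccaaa
Tnfrsf18: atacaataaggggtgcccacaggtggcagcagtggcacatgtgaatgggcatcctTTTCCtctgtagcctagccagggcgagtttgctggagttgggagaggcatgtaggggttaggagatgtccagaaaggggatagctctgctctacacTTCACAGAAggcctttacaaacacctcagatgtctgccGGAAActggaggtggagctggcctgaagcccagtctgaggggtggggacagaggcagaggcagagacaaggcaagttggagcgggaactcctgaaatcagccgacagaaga
Foxp3: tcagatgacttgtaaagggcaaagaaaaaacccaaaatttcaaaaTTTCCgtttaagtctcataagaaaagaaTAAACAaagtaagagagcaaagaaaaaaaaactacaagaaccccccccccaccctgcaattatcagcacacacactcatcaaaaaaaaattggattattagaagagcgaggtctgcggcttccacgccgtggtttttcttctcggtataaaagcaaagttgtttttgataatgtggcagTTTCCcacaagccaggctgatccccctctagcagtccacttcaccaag
GGAAA occurs in each of the 5, once in Ctla4, Il2ra and Tnfrsf4 and 2 times in Tnfrsf18 and Foxp3, but 61.3% of all 32851 promoter windows hold it. A second RefSeq window of Foxp3, not printed, holds GGAAA and the STAT letters once each. The STAT letters occur in Tnfrsf18 alone of these windows and in 8.30% of all, and the forkhead core in Foxp3 alone and in 13.4% of all. AP-1 letters, in 7.81% of all windows, were in none of the 5. The matches are letters only, and no binding was measured here. RefSeq windows were matched for 6 of the 9 genes, all but Icos, Lag3 and Ikzf2.

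Libraries 1 to 7 gave 452, 380, 339, 87, 245, 380 and 199 T cells, and the medians were 5666 to 9403 UMIs per T cell. The receptor chains that define the type were present: Trbc1 or Trbc2 had a UMI in 96.6% of the T cells and Trac in 82.7%. The immature markers Rag1 and Rag2 were at 0 outside library 7, where 20 Rag1 UMIs came from 0.503% of the T cells, which is 1 cell, and 1 Rag2 UMI was found. Dntt, another marker of immature cells, had 39 UMIs, found in every library but library 4 and in 1.34% of the T cells, and Ptcra had 2 UMIs, both in library 2. Libraries 4, 5 and 6 stood apart. Their T cells held 48811 to 150515 CPM of hemoglobin transcripts against 3.05 to 10.3 CPM in libraries 1, 2, 3 and 7, epithelial Sftpc and Scgb1a1 were under 1 CPM in all barcodes of the 3 libraries, and their shallowest T cell had 4002 UMIs against 444 in the other 4 libraries. No library is known to be a group, so this split is not a comparison of models. Of all barcodes, 306 had a sequence found in more than 1 library, 21 of them T cells.

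Levels are UMIs of a gene per 1000000 UMIs in the cells in question (CPM), given with exact 95% Poisson intervals, and shares are given with exact 95% binomial (Clopper-Pearson) intervals. Both cover counting error only, and with 1 sample no test was run, so ratios are given with the exact interval of 2 counts. A ratio of at least 2 was the mark for a difference. Each gene was compared with itself between cells and not with other genes.

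Every one of the 9 genes was higher in T cells than in the 30833 barcodes with no Cd3 UMI, by a ratio of at least 2 for 9 of 9 of them, where 11.6% of 17661 genes reached it. The ratios ran from 6.04 for Lag3 to 487 for Foxp3, with a median of 19.5. Across all genes the median ratio was 0.886.

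Foxp3 was close to exclusive to T cells. It had 310 UMIs in T cells, a level of 18.2 CPM (95% interval 16.2 to 20.3), and 10 UMIs in all cells without Cd3. Each of those 10 was a single UMI in a cell, and T cells held 96.9% of the Foxp3 UMIs in these 2 sets of cells. B cell-like cells, which should lack the gene, had 1 UMI in 4510 cells.

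By the share of their UMIs that lay in T cells, Icos and Pdcd1 came next. A small class of other cells, described below, had both at levels that could not be told apart from those of T cells. Icos was at 185 CPM (178 to 191) in T cells and 0.95 in the other cells, a ratio of 194 (171 to 222). For Pdcd1 the levels were 22.0 CPM (19.9 to 24.4) and 0.183, a ratio of 121 (89.4 to 166). Ctla4 was at 132 CPM (126 to 137) against 1.79, a ratio of 73.6 (66.6 to 81.3). T cells therefore held 92.5% of the Icos UMIs in the 2 sets, 88.5% of those of Pdcd1 and 82.4% of those of Ctla4.

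For the other 5 genes a larger part of the UMIs lay outside T cells. T cells held 55.3% of the Ikzf2 UMIs, 53.2% of those of Tnfrsf4, 53.0% of those of Il2ra, 38.6% of those of Tnfrsf18 and 27.7% of those of Lag3. Their levels in T cells were 143 CPM for Ikzf2, 50.4 for Tnfrsf4, 42.2 for Il2ra, 73.5 for Tnfrsf18 and 16.8 for Lag3.

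To see where the rest lay, cells without Cd3 were put into classes by their markers, at least 3 UMIs from at least 2 markers of the class and 3 times the sum of any other class. The names say which markers were met and no more. The 23 barcodes with eosinophil markers had a median of 739 UMIs and 1 UMI each of Tnfrsf18 and Ikzf2, and are left out of the order below.

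**Figure D1:**
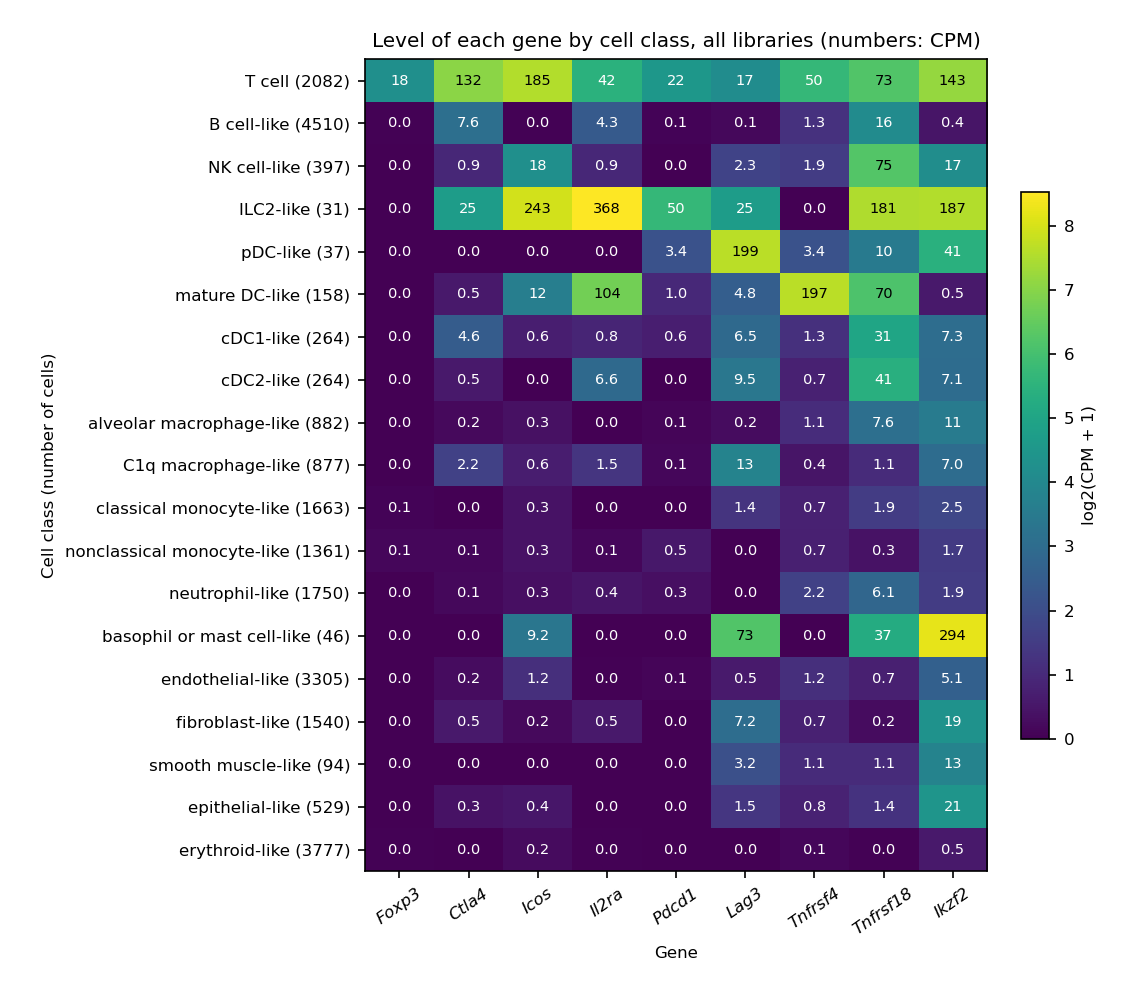
Level of each of the 9 genes (columns) in T cells and 18 classes of cells without a Cd3 UMI (rows, with the number of cells), over all libraries. Colour is log2(CPM + 1) and the numbers are CPM: Foxp3 stands at 18 CPM in T cells and at most 0.1 in any other row, while Il2ra is highest in ILC2-like cells, Tnfrsf4 in mature dendritic cell-like cells, Lag3 in plasmacytoid dendritic cell-like cells and Ikzf2 in basophil or mast cell-like cells.

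Il2ra was highest in the 31 cells with markers of group 2 innate lymphoid cells (ILC2-like), at 368 CPM (280 to 475) with a UMI in 77.4% of the cells. Mature dendritic cell-like cells followed with 104 CPM (90.7 to 119) and T cells with 42.2 (39.2 to 45.4), and each step was larger than its counting interval, with ratios of 3.53 (2.60 to 4.73) and 2.47 (2.11 to 2.88). Of the ILC2-like cells 26 had a Trac or Trbc UMI, none of them Trac, and a T cell whose Cd3 was not captured cannot be told apart from them. In the 5 without such a UMI, Il2ra was at 493 CPM (226 to 937), from 9 UMIs.

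ILC2-like cells had Icos at 243 CPM (173 to 332) against 185 in the T cells of all libraries. The ratio was 1.32 (0.94 to 1.81), and these levels could not be told apart. In the libraries that held ILC2-like cells, T cells had Icos at 257 CPM (248 to 267), which lies inside the ILC2-like interval. Which of these levels is higher thus depends on the libraries pooled. ILC2-like cells had Tnfrsf18 at 181 CPM (121 to 260), 2.41 times (1.56 to 3.59) the 75.2 of NK cell-like cells. Foxp3 and Tnfrsf4 had 0 UMIs in them, which allows up to 18.7 CPM. Pdcd1 was at 49.9 CPM (21.5 to 98.3) in ILC2-like cells, from 8 UMIs, against 22.0 in the T cells of all libraries. That ratio was 2.26 (0.97 to 4.51), so these levels could not be told apart either. In the libraries that held ILC2-like cells, T cells had Pdcd1 at 33.8 CPM (30.4 to 37.4).

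Tnfrsf4 had its highest level in mature dendritic cell-like cells, those with Fscn1, Ccl22 and Cacnb3. It was at 197 CPM (178 to 217) in these 158 cells, 3.91 times (3.47 to 4.41) the level in T cells, and 61.4% of the cells had a UMI. Libraries 1, 2, 3 and 7 held 156 of these cells. There alone the level was 200 CPM (181 to 220), against 75.3 (70.2 to 80.7) in T cells. In the 4 libraries with at least 19 such cells, the levels were 216, 87.6, 319 and 205 CPM in libraries 1, 2, 3 and 7. Only 5 of the 158 cells had a Trac or Trbc UMI, and the 153 others had Tnfrsf4 at 197 CPM too. Of other genes that T cells carry, Ctla4 was at 0.484 CPM and Pdcd1 at 0.969 CPM in the 158 cells. Icos was higher, at 11.6 CPM (7.45 to 17.3) from 24 UMIs, with a UMI in 11.4% of the cells. In the 153 cells with no Trac or Trbc UMI, Icos was at 12.3 CPM.

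Lag3 was highest in plasmacytoid dendritic cell-like cells, at 199 CPM (151 to 257) in 37 cells, of which 56.8% had a UMI. None of the 37 had a Trac or Trbc UMI. Basophil or mast cell-like cells came next at 73.5 CPM (42.0 to 119), ILC2-like cells had 24.9 (6.80 to 63.9) and T cells 16.8 (14.9 to 18.8), and of these neighbours only the plasmacytoid and basophil levels, with a ratio of 2.70 (1.53 to 5.04), differed beyond counting error. Over all libraries T cells were above the 13.2 CPM of C1q macrophage-like cells by 1.27 times (1.03 to 1.57). In libraries 1, 2, 3 and 7 alone T cells were at 23.3 CPM (20.5 to 26.3) and C1q macrophage-like cells at 13.2 (11.1 to 15.7).

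Ikzf2 was highest in the 46 basophil or mast cell-like cells, at 294 CPM (226 to 375), followed by ILC2-like cells at 187 (126 to 267) and T cells at 143 (137 to 149). The last 2 had a ratio of 1.31 (0.88 to 1.87). Epithelial-like and fibroblast-like cells had 20.8 and 19.2 CPM, so Ikzf2 was the gene of the 9 with a level of over 10 CPM in cells outside the blood lineages.

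Over all libraries Tnfrsf18 was at like levels in several classes. NK cell-like cells had 75.2 CPM (64.1 to 87.7), T cells 73.5 (69.5 to 77.7) and mature dendritic cell-like cells 69.8 (58.8 to 82.1), and none of these neighbours differed beyond its interval. In the 76 NK cell-like cells with no Trac or Trbc UMI the level was 46.0 CPM (26.3 to 74.7). B cell-like cells had 16.2 CPM, with a UMI in 9.14% of the cells at a median depth of 4928 UMIs, against 35.5% of T cells at 6610.

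Ctla4 in B cell-like cells was 7.61 CPM (6.63 to 8.70). It came from 86 of 4510 cells, or 1.91%, and 1 cell held 21 UMIs. The level was 17.1 to 27.8 CPM for libraries 1, 2, 3 and 7 and 0.412 to 1.75 CPM in libraries 4, 5 and 6. Leaving out B cell-like cells with a Trac or Trbc UMI gave 7.57 CPM. Free RNA was not measured on its own, and its part in these low levels was not tested.

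Within the T cells, the level of each gene differed between subsets read from the co-receptor genes. A Cd4 UMI without Cd8a or Cd8b1 was found in 637 T cells (Cd4 T cells), the reverse in 909 (Cd8 T cells), both in 51 and neither in 485. The last set holds cells in which no co-receptor RNA was captured, and 148 of them had a UMI of Trdc or Tcrg-C1 and are called gamma-delta cells here.

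**Figure D2:**
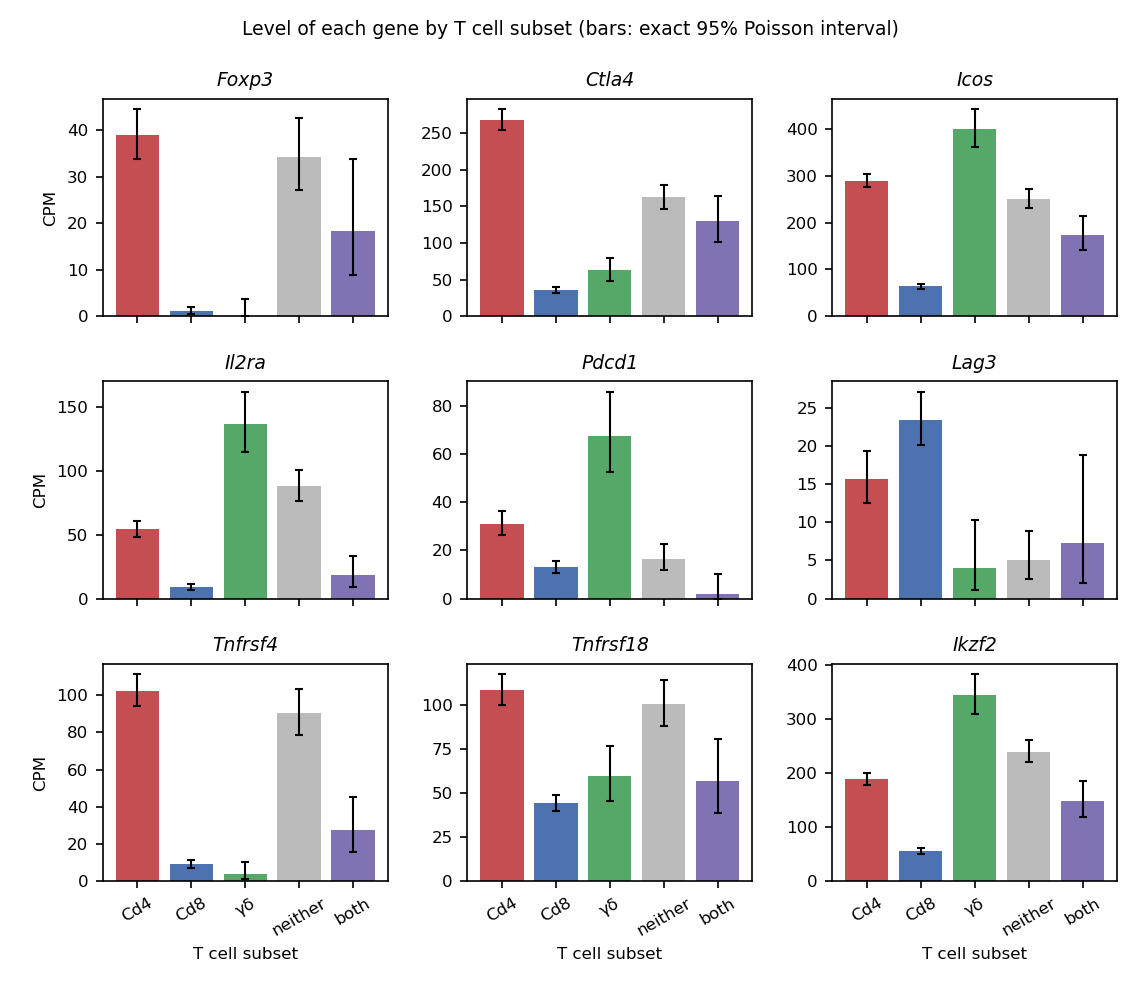
Level of each of the 9 genes in CPM (bars from 0, with exact 95% Poisson intervals) in T cells with Cd4, with Cd8, with gamma-delta receptor genes (γδ), with neither co-receptor and no gamma-delta gene, and with both, over all libraries. Cd4 T cells stand above Cd8 T cells for all genes but Lag3, at 15.6 against 23.4 CPM, and γδ cells are highest for Icos, Il2ra, Pdcd1 and Ikzf2.

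Of the 9 genes, 8 were at least 2 times as high in Cd4 as in Cd8 T cells, where 11.9% of 11863 genes were. The remaining gene was Lag3, and 0 of the 9 were at least 2 times lower, where 2.5% of genes were. The ratios had a median of 4.52 over the 9 genes and 1.16 over all genes.

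Foxp3 had the largest of these ratios, 37.5 (18.7 to 88.1), from 38.8 CPM in Cd4 and 1.03 in Cd8 T cells. It had a UMI in 10.8% of Cd4 T cells (8.53 to 13.5) and in 0.220% of Cd8 T cells, or 2 cells, of which 1 gave 7 of the 8 UMIs. Tnfrsf4 was at 102 CPM in Cd4 and 9.19 in Cd8 T cells, a ratio of 11.1 (8.69 to 14.5), and 31.0% of its UMIs in Cd8 T cells came from 1 cell. Ctla4 was at 268 and 35.8 CPM (ratio 7.48, 6.57 to 8.54) and Il2ra at 54.3 and 9.06 (6.0, 4.61 to 7.90).

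The ratio was 4.52 (4.09 to 5.01) for Icos, 3.40 (3.04 to 3.82) for Ikzf2, 2.46 (2.15 to 2.82) for Tnfrsf18 and 2.41 (1.87 to 3.11) for Pdcd1. The order of Pdcd1 differed in library 1, where Cd8 T cells had it at 69.6 CPM. There the 194 Cd4 T cells without a Foxp3 UMI had 45.0 CPM and the 18 with one had 104. In library 7 Cd4 T cells had Pdcd1 at 91.1 CPM, above the Cd8 T cells of every library. Lag3 was at 15.6 CPM in Cd4 and 23.4 in Cd8 T cells, a ratio of 0.67 (0.51 to 0.87). That order rests on library 1, where Lag3 was at 24.0 CPM in Cd4 and 138 in Cd8 T cells. In library 2 it was 5.47 and 9.13, in library 3 13.6 and 12.0, in library 5 15.6 and 13.4 and in library 7 29.1 and 39.5.

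Gamma-delta cells had no Foxp3 UMI in 148 cells, which allows up to 2.03% of cells. They had Il2ra at 137 CPM (115 to 162), with a UMI in 45.9% of the cells, against 54.3 CPM and 15.2% in Cd4 T cells. Their Icos was at 400 CPM (362 to 442) and their Ikzf2 at 344 (308 to 382), both above the Cd4 levels of 289 (275 to 304) and 188 (177 to 200). By library, Il2ra in gamma-delta cells was at 116, 162, 48.8 and 315 CPM in libraries 1, 2, 3 and 7, against 73.3, 21.0, 33.3 and 161 CPM in the Cd4 T cells there, with overlapping intervals in library 1 (72.4 to 175 against 61.3 to 86.9) and library 3 (21.0 to 96.1 against 21.9 to 48.4). In libraries 4, 5 and 6 it was at 34.8, 47.2 and 0 CPM against 37.8, 36.5 and 11.2, with intervals that also overlapped.

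Over all libraries, Pdcd1 was at 67.5 CPM (52.3 to 85.8) in gamma-delta cells, above 31.1 (26.6 to 36.2) in Cd4 and 12.9 (10.5 to 15.7) in Cd8 T cells. By library it was 73.5, 130, 30.5 and 50.4 CPM in libraries 1, 2, 3 and 7 and 0 in libraries 4, 5 and 6, which had 6, 8 and 5 gamma-delta cells. Library 2 held 40 of the 67 UMIs, 12 of them in 1 cell. Its 130 CPM was above the level of Cd4 and of Cd8 T cells in every library. The pooled order did not hold in library 7, where Cd4 T cells had Pdcd1 at 91.1 CPM, above the gamma-delta cells. In library 1 Cd8 T cells had it at 69.6 CPM, near the 73.5 of gamma-delta cells. Lag3 and Tnfrsf4 were low in gamma-delta cells, at 4.03 CPM each (1.1 to 10.3), from 4 UMIs each.

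The 9 genes also varied between libraries, and largely in the same order. Library 7 had the highest level of 6 of the 9 genes in all T cells and library 1 of the other 3, while library 6 had the lowest of 8 and library 4 that of Pdcd1.

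**Figure D3:**
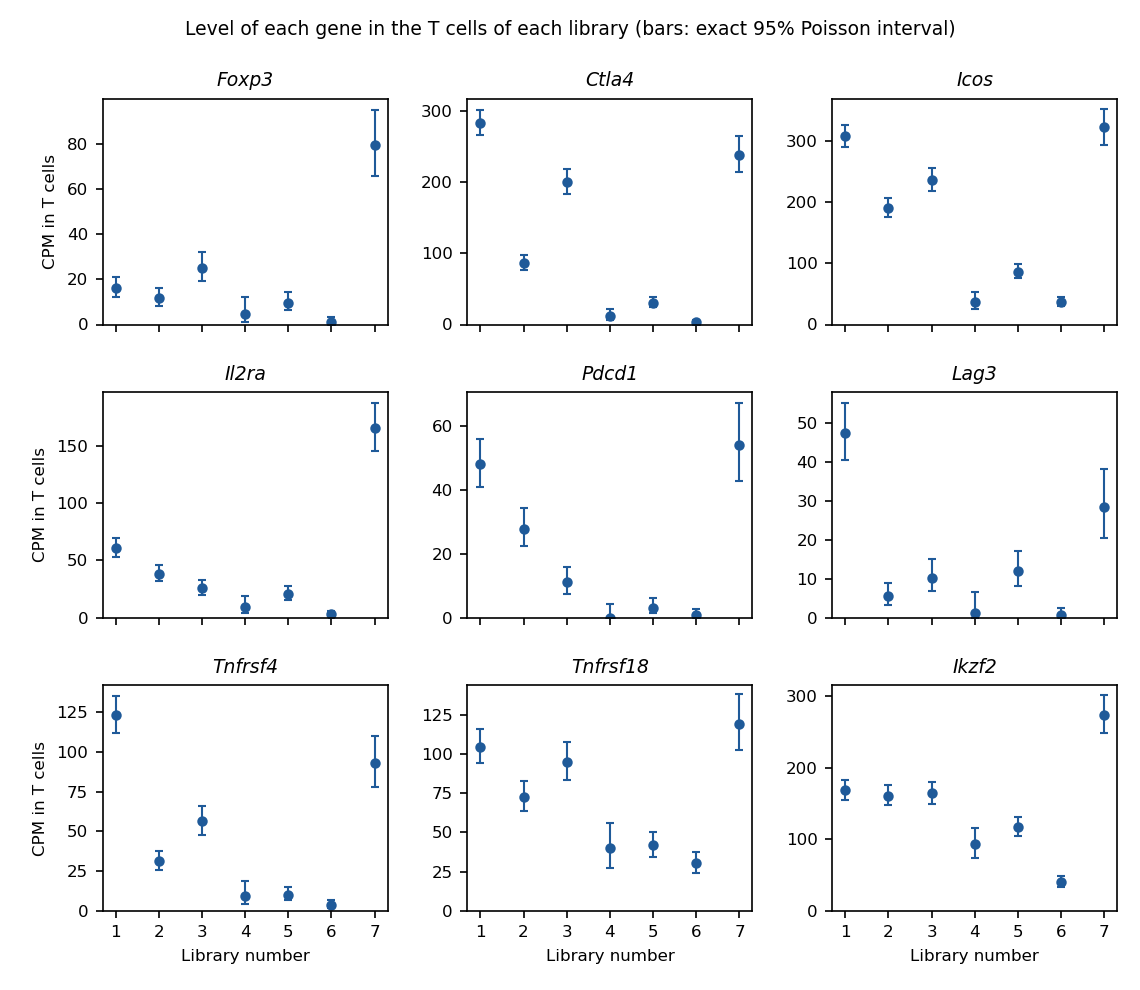
Level of each of the 9 genes in the T cells of each library, in CPM (points), with exact 95% Poisson intervals (bars) that cover counting error only. Library 7 is highest for Foxp3 at 79.5 CPM and libraries 4, 5 and 6 are the lowest 3 in every panel but that of Lag3, where library 5 is above libraries 2 and 3.

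Foxp3 was at 1.07 CPM in library 6, at a median of 11.7 over the libraries and at 79.5 in library 7. The share of T cells with a Foxp3 UMI was 4.995% in all (104 of 2082, 4.10 to 6.02), and it was 5.09, 4.21, 7.67, 1.15, 2.86, 0.526 and 14.6% in libraries 1 to 7. Library 7 was 3.16 times (2.32 to 4.35) the next, library 3, and library 3 was above library 1 by 1.57 times (1.08 to 2.28), but the neighbours below them did not differ beyond counting error. With every T cell thinned to 1500 UMIs, which left out 16 cells, the share was 2.37%, and it was 9.18% in library 7 and at most 3.28% in any other. With at most 5% mitochondrial UMIs, which kept 710 T cells, it was 8.59%.

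Il2ra ran from 2.86 CPM in library 6 through a median of 25.9 to 166 in library 7, and Pdcd1 from 0 UMIs in library 4 through 11.0 to 53.9 CPM in library 7. For Pdcd1, the 0 of library 4 allows up to 3.52 CPM. Libraries 7 and 1 were alike within counting error for Pdcd1 (ratio 1.13, 0.85 to 1.48) and Icos (1.05, 0.94 to 1.17), but not for Il2ra, at 166 and 60.8 CPM.

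Ctla4 ran from 3.58 CPM in library 6 through a median of 86.5 to 284 in library 1, Tnfrsf4 from 3.58 through 31.2 to 123 and Lag3 from 0.716 through 10.3 to 47.3 CPM in the same libraries. Icos went from 37.2 CPM in library 6 through 191 to 322 in library 7, Tnfrsf18 from 30.4 through 72.6 to 119 and Ikzf2 from 40.8 through 161 to 274. Lag3 thus reached its highest level where Foxp3 was at 16.1 CPM, and Foxp3 its highest where Lag3 was at 28.3.

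The make-up of the T cells differed between libraries too, in a like but not identical order, and its part in these levels was not tested. Cd4 T cells were 46.9% of the T cells in library 1, 35.7% in library 7 and 28.7 and 28.3% in libraries 2 and 3. In libraries 4, 5 and 6 they were 13.8, 24.1 and 20.5%, and the hemoglobin-rich libraries were the same 3. The order of the levels within Cd4 T cells alone was like that in all T cells. Library 7 was highest for 9 of 9 genes and library 6 lowest for 9 of 9, tied at 0 UMIs with library 4 for Pdcd1. Foxp3 had a UMI in 26.8% of the Cd4 T cells of library 7 (16.9 to 38.6) and in 2.56% of those of library 6 (0.312 to 8.96), with a median of 8.49% over the libraries. Ctla4 was at 5.58 CPM in the Cd4 T cells of library 6, at a median of 140 and at 417 in those of library 7.

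Within Cd8 T cells the order was another. Library 1 was highest for 4 genes, among them Lag3 at 138 CPM and Pdcd1 at 69.6 CPM, library 7 for 3 and library 3 for Tnfrsf18 and Ikzf2. Tnfrsf18 lay between 31.4 and 60.7 CPM in the Cd8 T cells of all libraries.

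Detection of more than 1 of the 9 genes in the same cell was common. Of the T cells 28.0% had a UMI of none of the 9, 27.5% of 1 and 8.36% of 5 or more, against 87.4% with none and 0.0259% with 5 or more among the cells without Cd3. In B cell-like cells 87.1% had none and 0 of 4510 cells had 5 or more, which allows a share of up to 0.0665%. Cells with 5 or more were 18.6% of the T cells of library 7, 13.9% of those of library 1 and 0 of the 380 of library 6, which allows up to 0.789%.

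For each pair, the T cells with both genes were set against the number expected if the 2 were found independently within each library. All 36 ratios were above 1, from 1.01 for Icos with Lag3 to 4.51 for Foxp3 with Tnfrsf4, with a median of 1.61. The lower bound was above 1 for 32 pairs, and the share of other pairs for which it was is not given here. A ratio of at least 2 was reached by 8 of 36 pairs, where 2.33% of the pairs among 7291 genes found in a like share of T cells reached it. Those other pairs had a median of 1.26, so a ratio above 1 was common among them too.

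**Figure D4:**
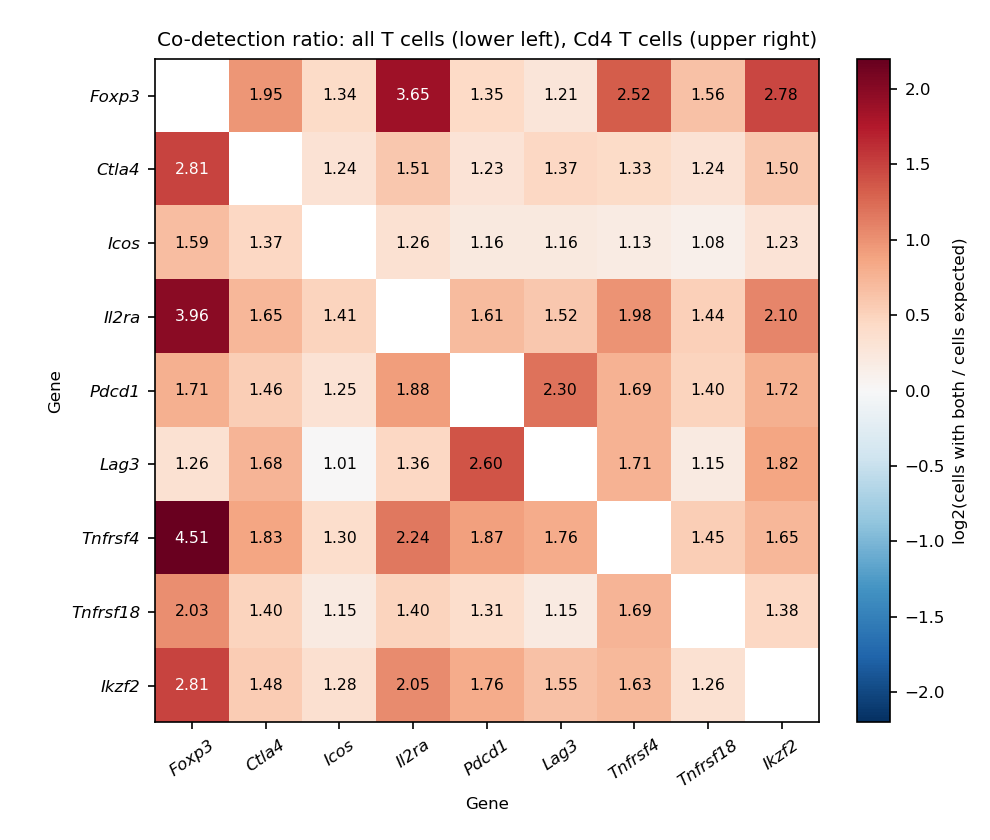
Cells with both genes of a pair over the cells expected from independent detection within each library, for all T cells (lower left) and Cd4 T cells (upper right). Colour is the log2 of the ratio and the numbers are the ratio: the Foxp3 column holds the highest ratios, up to 4.51 with Tnfrsf4, and Pdcd1 with Lag3 stands out from its neighbours at 2.60.

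Foxp3 was in 5 of the 8 pairs. It was found with Tnfrsf4 in 75 cells against 16.6 expected (ratio 4.51, 3.54 to 5.65) and with Il2ra in 71 against 17.9 (3.96, 3.09 to 4.99). The ratio was 2.81 (2.28 to 3.42) with Ctla4, also 2.81 (2.25 to 3.47) with Ikzf2 and 2.03 (1.62 to 2.51) with Tnfrsf18. Il2ra was found with Tnfrsf4 in 94 cells against 42.1 expected, a ratio of 2.24 (1.81 to 2.74), and with Ikzf2 in 159 against 77.7, a ratio of 2.05 (1.74 to 2.39).

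Pdcd1 and Lag3 were found together in 40 cells against 15.4 expected, a ratio of 2.60 (1.86 to 3.54), while Foxp3 with Lag3 had 10 against 7.91 (1.26, 0.61 to 2.33) and with Pdcd1 21 against 12.3 (1.71, 1.06 to 2.62). Of the cells with both Pdcd1 and Lag3, 19 were Cd4 and 20 Cd8 T cells. The ratios within these subsets were 2.30 (1.38 to 3.59) and 3.33 (2.03 to 5.14).

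Depth and subset both touched these counts. With every cell thinned to 1500 UMIs, 20 of the 36 pairs reached a ratio of 2, where 3% of other pairs did with a median of 1.01, and Foxp3 with Tnfrsf4 came to 7.51 (4.99 to 10.9). Within Cd4 T cells alone, 5 of 36 pairs reached it, where 5.08% of other pairs did. These 5 were Foxp3 with Il2ra at 3.65, with Ikzf2 at 2.78 and with Tnfrsf4 at 2.52, Pdcd1 with Lag3 at 2.30 and Il2ra with Ikzf2 at 2.10. Foxp3 with Ctla4 came to 1.95 (1.51 to 2.49).

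The T cells with a Foxp3 UMI carried many of the other genes. Ctla4 had a UMI in 93.3% of the 104 cells, Icos in 85.6%, Ikzf2 in 83.7%, Tnfrsf18 in 80.8%, Tnfrsf4 in 72.1%, Il2ra in 68.3%, Pdcd1 in 20.2% and Lag3 in 9.62%. Seen from the other side, most cells with these genes had no Foxp3 UMI: the share with one was 28.7% of the cells with Tnfrsf4, 27.3% of those with Il2ra, 18.8% of those with Ctla4 and 9.45% of those with Icos. The 104 cells held 50.9% of all Tnfrsf4 UMIs in T cells, 46.1% of those of Il2ra, 39.0% of those of Ikzf2, 36.3% of those of Ctla4 and 8.04% of those of Lag3.

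Among Cd4 T cells, those with a Foxp3 UMI (69 cells) were then set against those without (568 cells), with medians of 6146 and 6314 UMIs per cell. A missing UMI does not show that the cell lacks Foxp3, so the second set can hold regulatory T cells too. Of the 8 other genes, 6 were at least 2 times as high in the first set, where 4.76% of 10630 genes were. The 8 ratios had a median of 4.78, against 1.01 over all genes.

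**Figure D5:**
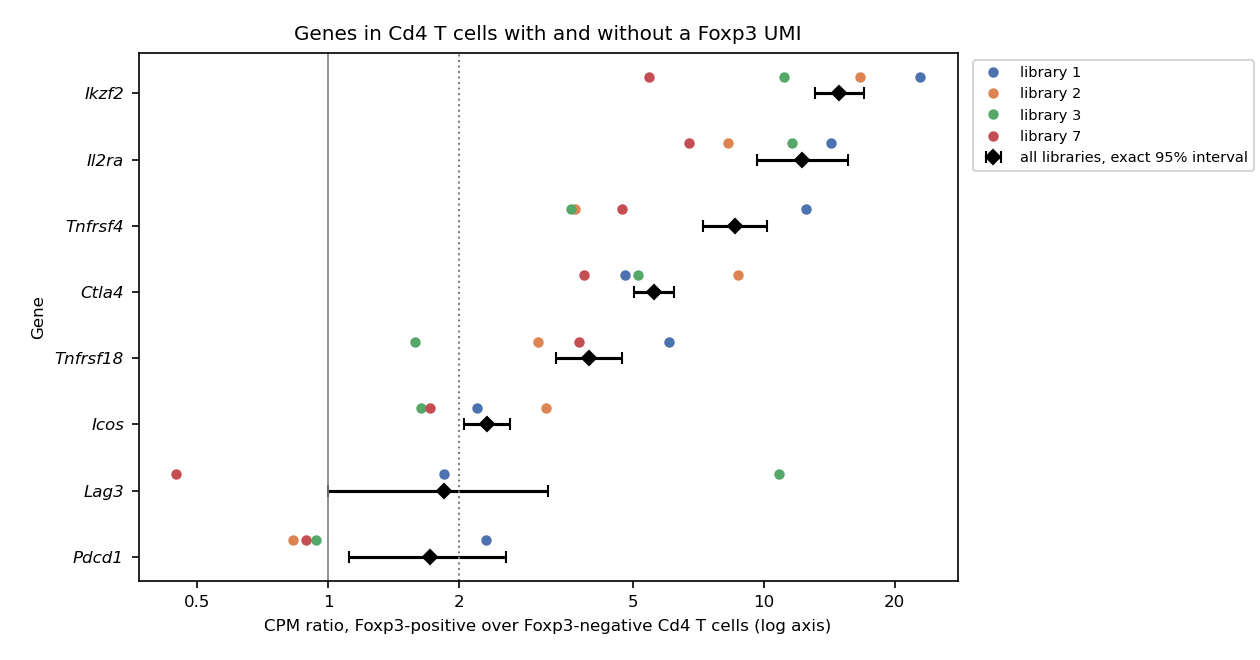
CPM ratio of Cd4 T cells with a Foxp3 UMI over those without, on a log axis, for the 8 other genes. Black diamonds with exact 95% intervals are all libraries, coloured points are the 4 libraries with at least 10 positive cells (a library at 0 has no point), and the dotted line marks a ratio of 2: Ikzf2 leads at 14.9, and Lag3 and Pdcd1 lie below 2 with points on both sides of 1.

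Ikzf2 had the largest ratio, 14.9 (13.1 to 17.0), from 1099 CPM with Foxp3 and 73.6 without. In the 4 libraries with at least 10 cells with Foxp3, numbers 1, 2, 3 and 7, its level was 1284, 1128, 805 and 1066 CPM with Foxp3 and 56.0, 67.7, 72.1 and 196 without. The 2 sets did not overlap over these libraries. Here and for the genes below, the share of all genes that separate in this way is not given. The ratio was lowest in library 7, at 5.45 (4.09 to 7.31).

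Il2ra was at 294 CPM with Foxp3 and 24.0 without, a ratio of 12.2 (9.64 to 15.6). In the same 4 libraries it was at 504, 107, 125 and 439 CPM with Foxp3 and at 35.3, 13.0, 10.7 and 65.2 without. Every level with Foxp3 was above every level without. With cells thinned to 1500 UMIs, 29.0% of cells with Foxp3 had an Il2ra UMI and 3.53% of those without.

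Tnfrsf4 had a ratio of 8.59 (7.24 to 10.2), with levels of 1028, 129, 300 and 431 CPM with Foxp3 and 82.2, 34.9, 82.9 and 91.3 without. Library 1 alone had a ratio of 12.5, against 3.61 to 4.72 in the other 3. Ctla4 had a ratio of 5.59 (5.03 to 6.21), with 1456, 741, 1123 and 930 CPM against 304, 84.7, 218 and 240. Again no level without Foxp3 reached the lowest with it.

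Tnfrsf18 had a ratio of 3.98 (3.33 to 4.73), from 322 and 81.1 CPM, and came to 1.58 (1.02 to 2.39) in library 3. Icos had a ratio of 2.32 (2.05 to 2.61), from 584 and 252 CPM. It was under 2 in libraries 3 and 7, at 1.63 and 1.71, where Cd4 T cells without Foxp3 also had it at 298 and 394 CPM. With cells thinned to 1000 UMIs its log2 ratio of 1.21 fell to 0.28, below a ratio of 2.

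Pdcd1 and Lag3 did not reach a ratio of 2. Pdcd1 was at 49.3 and 28.8 CPM (1.71, 1.11 to 2.55), and outside library 1, at 2.30 (1.23 to 4.04), its ratio was 0.83, 0.94 and 0.89 in libraries 2, 3 and 7. Lag3 was at 26.3 and 14.3 CPM (1.84, 0.996 to 3.20), from 16 UMIs in 7 cells with Foxp3. In library 3 it came from 1 cell with Foxp3, and without that library the log2 ratio of 0.88 fell to 0.18.

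The values of Pdcd1 and Lag3 also moved with the cells counted. Mki67, Top2a, Birc5, Cdk1 and Ccnb2, genes of cell division, had ratios between 1.31 and 1.93 in cells with Foxp3. Without the 197 T cells that held at least 2 UMIs of Mki67 and Top2a, the log2 ratio of Lag3 was 2.12 and that of Pdcd1 1.80, and all 8 genes passed a ratio of 2. The share of all genes that passed it in these cells is not given. Lag3 rested there on at most 16 UMIs in cells with Foxp3. Other settings moved Lag3 as well: its log2 ratio was 0.09 with at most 5% mitochondrial UMIs, 2.44 with cells thinned to 1000 UMIs and -0.27 where a positive cell needed 2 Foxp3 UMIs. The part of dividing cells in these values was not tested. Over all T cells, none of the 9 genes was at least 2 times as high in the dividing cells as in the rest, where 9.76% of 12418 genes were. Their ratios lay between 0.98 for Tnfrsf18 and 1.85 for Ctla4.

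Markers of other cell types were counted in both sets. At least 2 UMIs of a class whose markers T cells lack were found in 21.7% of the cells with Foxp3 and 18.0% of those without, with B cell markers in 11.6 and 4.05% and eosinophil markers, nearly all of them Ccr3, in 7.25 and 0%. Classical monocyte markers (Ly6c2, Ccr2 and F13a1), which T cells can express, summed to 666 and 198 CPM. The sum of C1q macrophage markers was 1.64 and 92.9 CPM and that of mature dendritic cell markers 3.29 and 11.8 CPM. Without the 460 T cells that had such markers, 7 of 8 genes reached a ratio of 2, Lag3 among them at a log2 ratio of 1.09. The share of all genes that reached it in the cells left is not given. No doublets were called.

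A list of 29 other genes of T cell activation and regulation was read in the same way. In T cells 23 of them were at least 2 times as high as in cells without Cd3, where 11.6% of all genes were. Another 5 were at least 2 times lower, where 33.8% of all genes were. The 5 were Egr2 (ratio 0.26), Cd44 and Havcr2 (0.38 each), Nr4a1 (0.39) and Nrp1 (0.45), genes that myeloid or stromal cells also use. In cells with Foxp3, 11 of the 27 with enough UMIs were at least 2 times as high, where 4.76% of all genes were. Another 4 were at least 2 times lower, a share near the 12.5% of all genes that were lower.

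The largest of these were Klrg1, a receptor of mature effector cells, at 309 CPM with Foxp3 and 17.2 without (ratio 18.0, 13.8 to 23.6), and Tnfrsf9 (4-1BB, another co-stimulatory receptor), at 151 and 9.74 (15.5, 10.8 to 22.6). Ikzf4, a relative of Ikzf2, had 97.0 and 7.05 CPM (13.8, 8.88 to 21.7). Itgae, an integrin of tissue-resident lymphocytes, had a ratio of 8.61, Il1rl1, the receptor for interleukin-33, one of 5.76, and Areg, a growth factor that regulatory T cells can make in tissue repair, one of 5.06.

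The 4 lower genes were Cd40lg, the helper T cell ligand, at 3.29 and 52.0 CPM (ratio 0.063, 0.0076 to 0.231), Ccr7, the homing receptor of naive and central memory cells, at 37.8 and 231 (0.16, 0.10 to 0.25), and Cd96 and Cd226, at 0.32 and 0.42. CD96 and CD226 are receptors for CD155. Of 10 genes for ligands of the receptors, 7 had enough UMIs in this comparison, with 2 at least 2 times as high (4.76% of all genes) and 1 lower (12.5% of all genes), Il2, with 1 UMI in the cells with Foxp3 and 108 in those without. Against cells without Cd3, T cells had 2 of the 10 ligand genes at least 2 times as high, where 11.6% of all genes were, and 6 lower, where 33.8% were. The 2 were Il2 at 2.52 times and Tnfsf4 at 2.68 times. Both were low: Tnfsf4 had 7 UMIs in T cells, and Il2 was at 12.0 CPM there against 6.98 CPM in endothelial-like cells.

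Among all genes with 20 or more UMIs in the cells with Foxp3 that were found in 5% or more of these cells, the 10 largest ratios after Foxp3 were those of Ccr3, Klrg1, Tnfrsf9, Ikzf2, Ikzf4, Il2ra, Neb, Rgs16, Itgae and Tnfrsf4. The rule also asked for a ratio above 1 in each library with 20 such cells, but no library had as many. Ccr3, the eotaxin receptor, led with 28 UMIs in 13 of the 69 cells against 2 UMIs in the 568 others, a ratio of 111 (28.0 to 962). Those 13 cells came from libraries 1, 2, 3, 5 and 7. The other eosinophil markers were nearly absent from the 69 cells, with 0 UMIs of Prg2 and Siglecf and 1 of Alox15.

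The genes most like each member were found by Pearson's r over the 2082 T cells, from log values centred within libraries, for the 11867 genes found in 1% of the cells or more. The values are a description over cells that share libraries and depth. Foxp3 was most like Tnfrsf4 (r = 0.50), Neb (0.48), the gene of the muscle protein nebulin, and Ctla4 (0.45). Il2ra was most like Foxp3, Tnfrsf4 and Ikzf2 (0.42, 0.42 and 0.38), and Ikzf2 most like Foxp3, Il2ra and Tnfrsf4 (0.44, 0.38 and 0.33).

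Tnfrsf4 followed Foxp3, Il2ra and Tnfrsf18 (0.50, 0.42 and 0.40), and Tnfrsf18 followed Tnfrsf4, Foxp3 and Ctla4 (0.40, 0.36 and 0.29). Ctla4 followed Foxp3, Tnfrsf4 and Icos (0.45, 0.40 and 0.38). Icos was most like Maf (0.42), Ctla4 (0.38) and Rora (0.37). Pdcd1 and Lag3 had none of the other genes of the set among their nearest 3. Pdcd1 was most like Trdv4 (0.30), a gamma-delta receptor segment, Cd163l1 (0.30) and Cxcr6 (0.26). Lag3 was most like the chemokine gene Xcl1 (0.34), Rgs16 (0.32) and Tnfrsf9 (0.26).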

How the data were processed

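The study describes its single-cell RNA libraries as made from mouse lung. Libraries 4, 5 and 6 had 0 epithelial-like, endothelial-like and fibroblast-like cells, and the tissue of a library cannot be read from its number. The UMI counts per gene and barcode are as the authors deposited them: reads were aligned and counted with Cell Ranger 3.1.0 (file header) and STAR on mm10 (submitters' processing notes), and the libraries were merged with reads down-sampled to even them out, which limits depth. The matrix precedes the study's filter on cells. The labels and the study's methods name different versions of the droplet kit, so the kit version is not given here.

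T cells, subsets and classes were gated from raw UMIs as the report states, without clustering, integration or doublet calling, and markers of other classes were counted in T cells instead. Levels are sums of UMIs over cells, so deep cells weigh more. Cells are not replicates, and with no barcode tied to a sample no test was run. A gene entered a comparison with at least 20 UMIs over both sides. For shares at a fixed depth every cell was thinned at random to 1500 UMIs. Expected numbers of cells with both genes of a pair were summed over libraries. The background for pairs was all pairs of genes whose share of T cells lay within the range of the 9 genes. The scripts were tested on simulated data. Python 3.11.15, numpy 2.4.6, scipy 1.17.1, pandas 2.3.3 and matplotlib 3.10.9 were used.

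The genes, the cell rule, the marker lists and the lists of 29 related, 10 ligand and 5 division genes were chosen with earlier results of these data known. Named were the 9 genes, the ligands, up to 6 related genes by largest ratio, the division genes, the 10 genes of largest ratio in cells with Foxp3 under the limits in the report, and the 3 genes most like each of the 9. The related genes that were lower, and Siglecf, were named after their values were seen. Promoter sequences are those of RefSeq for GRCm38.p6. Alternatives were the Cd3 and mitochondrial limits, the study's limits on UMIs and genes, markers of other classes, thinning, leaving out each library, libraries 1, 2, 3 and 7 alone, and means over cells. Leaving out dividing cells, shared barcodes or cells with markers that T cells lack, and asking for 2 Foxp3 UMIs, were added after seeing the data.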

Additional observations from a re-analysis of the deposited data

How the results depend on the processing

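All 9 genes kept a ratio of at least 2 between T cells and other cells under each alternative run, leaving out each library included (9 to 9 genes). The count of genes at least 2 times as high in Cd4 T cells with Foxp3 was 6 of 8, and 6 to 8 under the alternatives (6 to 7 when 1 library was left out), not always of the same genes: with cells thinned to 1000 UMIs Icos dropped out and Pdcd1 and Lag3 came in. The 8 pairs with a ratio of at least 2 became 13 with at least 1 Cd3 UMI, 20 with cells thinned to 1500 UMIs and 21 with cells thinned to 1000, and ran from 7 without library 3 to 12 without library 1. The share of T cells with a Foxp3 UMI, 4.995%, became 3.81% with at least 1 Cd3 UMI, 8.59% with at most 5% mitochondrial UMIs, 2.37% and 1.74% with cells thinned to 1500 and 1000 UMIs, 6.86% in libraries 1, 2, 3 and 7, and 2.41% in the 166 T cells left without 2 UMIs of any other class. It ran from 3.98% without library 7 to 5.99% without library 6. Thinning lowers the share by its construction, since fewer UMIs are read, and for the rest the cause was not tested. Of 347 ratios of single genes under 21 settings, 246 moved by less than their interval, 101 by more and 31 by over 1.5 times. Lag3 turned direction in cells with Foxp3, to a log2 ratio of -0.27, where a positive cell needed 2 Foxp3 UMIs. No paired analysis was possible because no barcode is tied to a sample and no test was run. With cells thinned to 1500 UMIs, Pdcd1, Foxp3 and Lag3 had a UMI in 2.90, 2.37 and 2.13% of T cells. Genes found in more cells fell as well, Tnfrsf18 from 35.5 to 12.3% and Icos from 45.2 to 21.3%.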

Other observations

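Genes for the ligands of these receptors were read in the same classes. Mature dendritic cell-like cells had Cd274 and Pdcd1lg2, the ligands of PD-1, at 337 and 164 CPM, Cd80 and Cd86, the ligands of CTLA4 and CD28, at 78.5 and 155 CPM, and Icosl at 119 CPM. T cells had 23.6, 7.44, 3.52, 12.6 and 8.50 CPM of the same genes in that order. Tnfsf4, the ligand of OX40, had 19 UMIs in the mature dendritic cell-like cells, or 9.20 CPM, beside their Tnfrsf4 at 197 CPM.

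Other classes carried several of these genes as well. B cell-like cells had Icosl at 79.8, Cd86 at 44.9 and Cd274 at 40.8 CPM. Neutrophil-like cells had Cd274 at 67.8 and Cd80 at 59.8 CPM, and alveolar macrophage-like cells had Cd274 at 124 CPM. Conventional dendritic cell-like cells of type 1 had Cd86 at 221, Icosl at 43.6 and Cd80 at 21.6 CPM. Il2, whose receptor IL2RA completes, was at 12.0 CPM in T cells and at 81.1 CPM in ILC2-like cells, the latter from 13 UMIs, of which 7 were in 1 cell. Classes that should lack Il2 also had it, at 6.98 CPM in endothelial-like and 6.18 CPM in fibroblast-like cells, so levels near these are read as background. Of the genes for ligands of LAG3, Fgl1 had no UMI in T cells, and Lgals3 was at 261 CPM in T cells and 2392 CPM in alveolar macrophage-like cells. The GITR ligand Tnfsf18 had 1 UMI in T cells and 8 in B cell-like cells. These are levels of 1 sample, with no test.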
